A study of Arabidopsis thaliana with 6 samples.

Results

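The gibberellin oxidases described here are 10 genes of Arabidopsis thaliana, chosen by locus identifier from the 33602 loci of the deposited expression table. They comprise 3 GA 20-oxidases (GA20ox1, AT4G25420; GA20ox2, AT5G51810; GA20ox3, AT5G07200), 4 GA 3-oxidases (GA3ox1, AT1G15550; GA3ox2, AT1G80340; GA3ox3, AT4G21690; GA3ox4, AT1G80330) and 3 GA 2-oxidases (GA2ox2, AT1G30040; GA2ox6, AT1G02400; GA2ox8, AT4G21200). Transcripts were measured by poly(A) RNA sequencing of nuclei isolated by INTACT, which pulls out nuclei carrying a tagged envelope protein, from F1 endosperm at 4 days after pollination. Cm x L was TEmob Columbia-0 (mother, carrying the INTACT tag) pollinated by Landsberg erecta (Ler). L x Cm was Ler pi-1, a pistillata mutant, as mother with TEmob Columbia-0 (tagged) as father. TEmob is 1 diploid line, made by germinating seeds with 40 µM zebularine and α-amanitin at 37 °C, then passed through a haploid stage after a cross to a cenh3 CENH3-TAILSWAP plant and doubled with colchicine. Both crosses carry this treated genome on 1 side, and Columbia without the treatment was not analysed here. Each cross had 3 libraries. Because the labels do not say whether these came from separate plants, p-values measure the spread between libraries only, which may be technical.

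Gibberellins are plant growth hormones made from a plastid diterpene through early enzymes (CPS, KS, KO and KAO) and then soluble dioxygenases. GA 20-oxidases carry out the stepwise oxidation that yields the immediate precursors, GA 3-oxidases turn these into the active hormones, and GA 2-oxidases inactivate active hormones or precursors. In seeds, gibberellins are known for their part in seed growth and, later, in germination. Most of the later steps are encoded by small gene families whose members are transcribed in different tissues.

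Levels are given in RPKM, reads scaled to the length of the gene and the size of the library, so they can be compared between genes. Values per library are listed in the order of replicates 1, 2 and 3. The libraries held 21.2 to 29.2 M reads, recovered from the steps between low values, and 3 reads on a gene of 1 kb were worth 0.103 to 0.141 RPKM, which covers counting error only. All 10 markers of endosperm were detected in all 6 libraries, with summed levels of 466 to 473 RPKM in Cm x L and 518 to 578 RPKM in L x Cm. Single endosperm markers went both ways: MINI3, AGL80 and IKU2 were called lower in Cm x L (−2.52, −1.75 and −1.51) and HDG3 and FIS2 higher (1.15 and 0.61) on the log2 scale of the test given below. Markers of other tissues were present as well. The 3 pollen markers summed to 50.5 to 510 RPKM in Cm x L and 596 to 2350 RPKM in L x Cm, the 7 seed coat markers to 115 to 393 RPKM in Cm x L and 220 to 455 RPKM in L x Cm, and the 4 green tissue markers to 2020 to 2410 RPKM in Cm x L and 1130 to 1260 RPKM in L x Cm. The 6 embryo markers summed to 72.8 to 161 RPKM in Cm x L and 90.0 to 115 RPKM in L x Cm, with CUC3 and WOX2 at 0 in Cm x L replicate 3 and none at 0 elsewhere. LEC1 made up most of the Cm x L sums, and each of the other 5 embryo markers had all Cm x L libraries below all L x Cm libraries. Cm x L replicate 3 listed 10084 loci at 0, against 1005 to 5036 in the other Cm x L libraries and 1270 to 3636 in L x Cm. Fewer cells of a type and less RNA per cell cannot be told apart in these bulk samples, and since the tag was maternal in one cross and paternal in the other, an effect of the purification cannot be told apart from one of cross direction.

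On the RefSeq build TAIR10.1 the GA 20-oxidase genes lie as follows: GA20ox1 at chr4:12990851-12992585 (minus strand), GA20ox2 at chr5:21055179-21056881 (minus strand) and GA20ox3 at chr5:2243553-2245339 (minus strand). The GA 3-oxidase genes are GA3ox1 at chr1:5344388-5346342 (minus strand), GA3ox2 at chr1:30200466-30202349 (minus strand), GA3ox3 at chr4:11527229-11529060 (plus strand) and GA3ox4 at chr1:30198061-30199537 (minus strand). The GA 2-oxidase genes are GA2ox2 at chr1:10537457-10540044 (plus strand), GA2ox6 at chr1:486800-489651 (plus strand) and GA2ox8 at chr4:11302682-11306770 (plus strand). All 10 are protein-coding genes.

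The crosses were compared by limma on log2(RPKM + 1) over the 26620 loci that averaged 1 RPKM or more, 2-sided, with Benjamini-Hochberg adjusted p below 0.05 as the threshold. Each difference is the mean of Cm x L less that of L x Cm on this log2 scale. Of the 10 oxidases, 5 were lower in Cm x L and 0 were higher: GA20ox1, GA3ox1, GA3ox2, GA2ox6 and GA2ox8. Over all tested loci 18.3% were called lower and 6.73% higher. By unadjusted limma p below 0.05 the oxidases had 6 lower and 0 higher. In either direction, 11050 of the 26620 tested loci were below that p, and 7913 of the 18117 with a mean under 20 RPKM. Of all called loci 73.1% were lower. With quantile-normalized values this share was 45.7% and the median difference over tested loci 0.04. Low loci were called lower more often than abundant ones: 23.7% lower and 3.28% higher with a mean under 20 RPKM, and 6.7% lower and 14.1% higher above it. A total of 8 oxidases lay under 20 RPKM, with 4 called lower, and 1 of the other 2 was called lower. The median difference was −1.41 over the 10 oxidases and −0.22 over all tested loci. With a mean under 20 RPKM it was −1.41 over the 8 oxidases and −0.55 over all such loci. Over the loci of at least 20 RPKM it was 0.14. The filter was passed by all 10 members, but GA20ox1, GA3ox1, GA2ox6 and GA2ox8 averaged under 1 RPKM in Cm x L and passed through their level in L x Cm, so these counts describe the family and do not by themselves set it apart. In 6 oxidases the 3 Cm x L libraries all lay below the 3 L x Cm libraries, and in 0 all above. The same was true of 29.8% and 15.7% of tested loci. The count of lower oxidases was 3 when replicate 1 of either cross or replicate 2 of L x Cm was left out, and 5 when any other library was. Without Cm x L replicate 3 those 5 included GA3ox4 in place of GA2ox8.

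**Figure D1:**
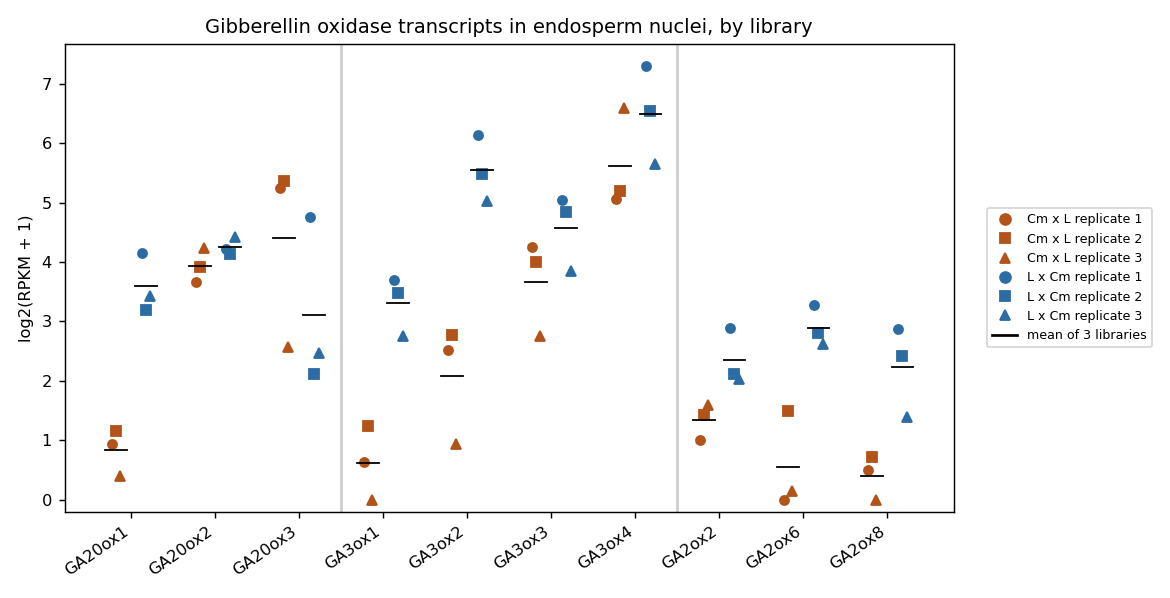
Level of each oxidase, as log2(RPKM + 1), in each of the 3 Cm x L libraries (orange, left) and 3 L x Cm libraries (blue, right), with the symbol showing the replicate and the bar the mean of the 3 log2 values. GA20ox1, GA3ox1, GA3ox2 and the 3 GA 2-oxidases have no overlap between the crosses, and GA20ox3 and GA3ox4 spread widely within a cross.

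Among the GA 20-oxidases, 1 of 3 fell in Cm x L. GA20ox1, which in vegetative tissue is known for stem elongation, had 0.908, 1.23 and 0.317 RPKM in Cm x L and 16.8, 8.16 and 9.79 RPKM in L x Cm. The groups were far apart, with the highest Cm x L library below the lowest L x Cm library. The Cm x L values correspond to about 41, 45 and 11 reads and the L x Cm values to about 708, 274 and 321. The difference was −2.77 (SE 0.37, 95% interval −3.62 to −1.92, adjusted p = 0.0063 by limma), and the call survived leaving out any 1 library. GA20ox2, a paralogue with an overlapping role in growth, had 11.7, 14.1 and 17.8 RPKM in Cm x L and 17.6, 16.6 and 20.3 RPKM in L x Cm. Relative to its mean it had the smallest SD of the 10 in each cross, at 14.5 ± 3.07 RPKM in Cm x L and 18.2 ± 1.91 RPKM in L x Cm (SD, n = 3 per cross), and it did not pass (−0.32, 95% interval −0.79 to 0.15, adjusted p = 0.27).

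GA20ox3, a further paralogue of the same step, was the 1 member with a positive difference. It had 37.1, 40.0 and 4.97 RPKM in Cm x L and 26.1, 3.33 and 4.55 RPKM in L x Cm. High libraries (26.1 to 40.0 RPKM) and low libraries (3.33 to 4.97 RPKM) thus occurred in both crosses, and the ranges overlapped. The difference was 1.28 (95% interval −0.77 to 3.33, adjusted p = 0.31). Without Cm x L replicate 3 it was 2.19 with an adjusted p of 0.049 by limma, in a range of 0.049 to 0.61 over all settings. In that library the seed coat markers summed to 393 RPKM, against 115 and 161 RPKM in Cm x L replicates 1 and 2. The embryo markers summed to 72.8 RPKM there, against 161 and 160 RPKM. These embryo sums were mostly LEC1, at 157, 151 and 69.5 RPKM in replicates 1, 2 and 3. No other embryo marker exceeded 3.53 RPKM in Cm x L. The part of seed coat or embryo RNA in the level of GA20ox3 was not tested.

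To show whether reads of these related genes could be confused, the coding sequences of the members were compared, using the RefSeq annotation of TAIR10.1. Within a class, pairs were 61.1% to 79.4% identical, and the longest stretch without a mismatch was 29 bases, between GA20ox1 and GA20ox2. Among the 4 GA 3-oxidases the longest was 23 bases, between GA3ox1 and GA3ox4. Pairs of different classes were 59.4% to 66.4% identical, so the lower values within a class were no higher than between classes. Positions aligned to a gap were left out of all these percentages. The 60 bases of the GA 3-oxidase coding sequences with the most identity in all 4 genes are printed below, 5′ to 3′, with capitals at the positions that are not the same in all 4. They run from base 675 to 734 of the coding sequence in GA3ox1, 654 to 713 in GA3ox2, 657 to 716 in GA3ox3 and 660 to 719 in GA3ox4, counted from 1 at the start codon. In this window 38 of 60 bases were the same in all 4. The read length is not given in the sources used here.
GA3ox1: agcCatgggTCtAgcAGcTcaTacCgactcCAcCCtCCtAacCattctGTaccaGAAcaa
GA3ox2: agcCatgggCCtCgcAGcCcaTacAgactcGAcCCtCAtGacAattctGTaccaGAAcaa
GA3ox3: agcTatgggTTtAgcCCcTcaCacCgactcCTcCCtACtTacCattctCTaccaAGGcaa
GA3ox4: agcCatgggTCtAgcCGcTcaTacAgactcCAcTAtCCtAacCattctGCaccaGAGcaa

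Of the 4 GA 3-oxidases, GA3ox1 and GA3ox2 fell in Cm x L and GA3ox3 and GA3ox4 did not pass. GA3ox1, a main enzyme of the last synthesis step in vegetative growth, had 0.545, 1.35 and 0 RPKM in Cm x L and 11.9, 10.2 and 5.74 RPKM in L x Cm. This is about 24, 48 and 0 reads in Cm x L and about 492, 337 and 186 reads in L x Cm. All Cm x L libraries lay well below all L x Cm libraries, and the difference was −2.69 (SE 0.42, 95% interval −3.67 to −1.71, adjusted p = 0.0080 by limma).

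GA3ox2, which is known to act together with GA3ox1 in germinating seeds and seedlings, had 4.71, 5.84 and 0.917 RPKM in Cm x L and 69.0, 43.8 and 31.5 RPKM in L x Cm. On the log2(RPKM + 1) scale it had the largest difference of the 10 oxidases, at −3.47 (SE 0.49, 95% interval −4.61 to −2.33, adjusted p = 0.0070), and the mean in L x Cm was 12.6 times that in Cm x L. This rank depends on the pseudocount: with 0.1 in place of 1, GA3ox1 (−4.30) and GA2ox6 (−4.27) exceeded GA3ox2 (−3.90), and the ratio of mean RPKM was higher for GA3ox1 (14.7) and GA20ox1 (14.2). It stood at the 40.3 to 53.2 percentile of all loci in the Cm x L libraries and at the 84.7 to 94.5 percentile in the L x Cm libraries. The calls of GA3ox1 and GA3ox2 survived leaving out any 1 library, and those of GA3ox1, GA3ox2 and GA20ox1 also after quantile normalization (−1.99, −3.13 and −2.08).

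GA3ox3, known mainly from reproductive organs, had 18.1, 15.0 and 5.76 RPKM in Cm x L and 32.1, 27.6 and 13.4 RPKM in L x Cm. Replicate 3 was the lowest library in each cross, and L x Cm replicate 3 lay below Cm x L replicates 1 and 2. The difference was −0.91 (95% interval −1.94 to 0.13, adjusted p = 0.16). Over all settings its adjusted p by limma ran from 0.018, where the replicate number was added to the fit, to 0.4. GA3ox4, also known mainly from flowers and seeds, had the highest mean of the 10 oxidases in each cross. GA20ox3 exceeded it in Cm x L replicates 1 and 2 (37.1 and 40.0 RPKM). The levels of GA3ox4 were 32.5, 35.5 and 95.4 RPKM in Cm x L and 157, 91.8 and 49.1 RPKM in L x Cm. Cm x L replicate 3 was well above the other Cm x L libraries and above L x Cm replicates 2 and 3. The difference was −0.88 (95% interval −2.04 to 0.28, adjusted p = 0.22), and −1.37 without Cm x L replicate 3 (adjusted p = 0.043 by limma, range 0.043 to 0.54 over all settings).

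**Figure D2:**
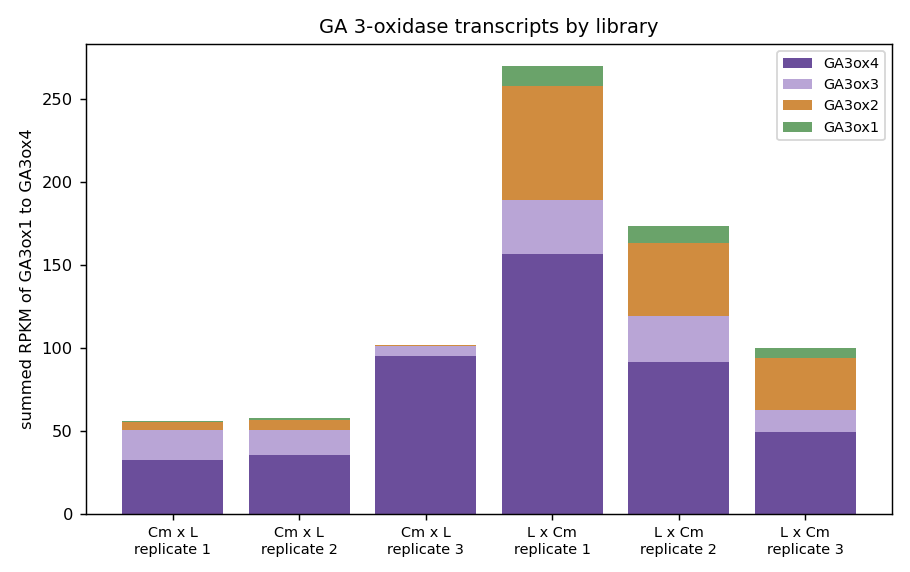
Summed RPKM of the 4 GA 3-oxidases in each library, with Cm x L on the left and L x Cm on the right and each colour 1 gene. GA3ox4 makes up most of the sum in Cm x L replicate 3, and GA3ox2 is a broad band in each L x Cm library and a thin one in each Cm x L library.

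GA3ox4 supplied 58.1, 61.6 and 93.5% of GA 3-oxidase RPKM in Cm x L and 58.2, 53.0 and 49.2% in L x Cm. The summed level of the 4 genes was 55.9, 57.7 and 102 RPKM in Cm x L and 270, 173 and 99.8 RPKM in L x Cm. The highest Cm x L sum therefore lay above the lowest L x Cm sum. GA3ox4 and GA3ox2 are neighbours on chromosome 1, on the same strand, with 928 bases and 0 annotated genes between them. Their coding sequences were 65.6% identical, with a longest shared stretch of 11 bases. In Cm x L replicate 3 GA3ox4 was at its highest within the cross (95.4 RPKM) and GA3ox2 at its lowest (0.917 RPKM). The 3′ end of GA3ox4 overlaps the long noncoding RNA locus AT1G80325 by 11 bases on the same strand. That locus had 13.0, 14.9 and 16.6 RPKM in Cm x L and 32.9, 22.8 and 22.1 RPKM in L x Cm, without the high value that GA3ox4 had in Cm x L replicate 3.

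By the likeness of their profiles, the loci closest to GA3ox4 over the 6 libraries were NUDT20 and AT3G26380 (Pearson r = 0.993 each) and ABCA10 (r = 0.992), out of 26619 searched. The libraries share cross and depth, and 90 loci reached 0.95, so the r values are a description only. ABCA10 had 18.9, 19.9 and 28.9 RPKM in Cm x L and 33.3, 28.0 and 20.8 RPKM in L x Cm, with the same order of libraries as GA3ox4 but a smaller range.

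All 3 GA 2-oxidases had every Cm x L library below every L x Cm library, and 2 of them passed. GA2ox2, which inactivates the active hormones, had 1.01, 1.68 and 2.03 RPKM in Cm x L and 6.42, 3.33 and 3.08 RPKM in L x Cm. It did not pass (−1.0, 95% interval −1.84 to −0.16, adjusted p = 0.076), and after quantile normalization the difference was −0.01. GA2ox6, of the same biochemical type, had 0, 1.81 and 0.101 RPKM in Cm x L, or about 0, 64 and 3 reads. In L x Cm it had 8.65, 5.95 and 5.14 RPKM, or about 352, 194 and 163 reads. Only Cm x L replicate 2 held more than a few reads in that cross. The difference was −2.35 (SE 0.46, adjusted p = 0.014), and the call was lost in 3 of the 6 fits that left out 1 library, those without replicate 1 of either cross and without replicate 2 of L x Cm (adjusted p = 0.050 to 0.054).

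GA2ox8, which acts on precursors and not on the finished hormones, had 0.408, 0.650 and 0 RPKM in Cm x L and 6.36, 4.32 and 1.61 RPKM in L x Cm. These correspond to about 18, 23 and 0 reads in Cm x L and about 257, 139 and 51 reads in L x Cm. The difference was −1.82 (SE 0.47, adjusted p = 0.029), the smallest of the 5 called. It was called in 2 of the 6 fits without 1 library, was lost without replicate 1 or 3 of Cm x L and without replicate 1 or 2 of L x Cm (adjusted p = 0.056 to 0.094), and was −0.77 after quantile normalization (adjusted p = 0.18). Summed over the 3 genes, the GA 2-oxidases reached 1.42, 4.14 and 2.13 RPKM in Cm x L and 21.4, 13.6 and 9.83 RPKM in L x Cm, the lowest sums of the 3 classes in all 6 libraries when only the 10 members are summed. With the other 4 GA 2-oxidases the sums were 22.5, 25.6 and 23.6 RPKM in Cm x L and 74.7, 56.5 and 33.2 RPKM in L x Cm, again with no overlap. The GA 20-oxidases summed to 49.7, 55.3 and 23.1 RPKM in Cm x L and to 60.6, 28.1 and 34.6 RPKM in L x Cm, so those sums overlapped between the crosses.

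**Figure D3:**
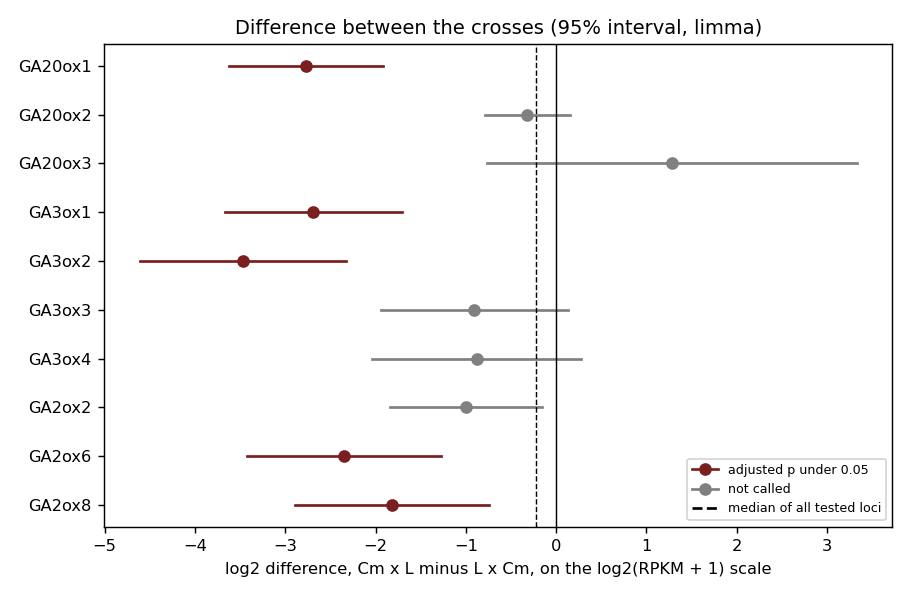
Difference between the crosses for each oxidase, Cm x L minus L x Cm on the log2(RPKM + 1) scale, with its 95% interval from limma. Dark red marks the 5 called genes, from −1.82 for GA2ox8 to −3.47 for GA3ox2, and the dashed line the median of all tested loci (−0.22).

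The mean levels spanned a wide range in each cross. In Cm x L the means ran from GA3ox4 (54.5 ± 35.5 RPKM) through GA20ox3 (27.4 ± 19.4), GA20ox2 (14.5 ± 3.07), GA3ox3 (13.0 ± 6.44), GA3ox2 (3.82 ± 2.58) and GA2ox2 (1.57 ± 0.52) to GA20ox1, GA2ox6, GA3ox1 and GA2ox8, at 0.353 to 0.817 (SD, n = 3). In L x Cm they ran from GA3ox4 (99.4 ± 54.5 RPKM) through GA3ox2 (48.1 ± 19.1), GA3ox3 (24.4 ± 9.75), GA20ox2 (18.2 ± 1.91), GA20ox1 (11.6 ± 4.61), GA20ox3 (11.3 ± 12.8), GA3ox1 (9.27 ± 3.17) and GA2ox6 (6.58 ± 1.84) to GA2ox2 and GA2ox8 (4.28 ± 1.86 and 4.09 ± 2.38; SD, n = 3). Most neighbours in either order lay within each other's spread. GA3ox2 ranked second in L x Cm, where its 3 libraries (31.5 to 69.0 RPKM) lay above all libraries of GA20ox2 (16.6 to 20.3 RPKM), and behind GA20ox3, GA20ox2 and GA3ox3 in Cm x L, where they (0.917 to 5.84 RPKM) lay below all libraries of GA20ox2 (11.7 to 17.8 RPKM).

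Libraries of a cross also differed in a shared way. L x Cm replicate 1 was the highest library of its cross for 9 of the 10 oxidases, GA20ox2 being the exception, whereas 46.3% of all tested loci were highest there. In Cm x L, replicate 3 was the lowest library for 6 oxidases and for 46.5% of tested loci. GA20ox1, GA20ox3, GA3ox1, GA3ox2 and GA2ox8 had 1 order there, with replicate 2 highest and replicate 3 lowest. The embryo markers moved in a like direction for the greater part: 4 of 6 were lower in Cm x L and 1 (LEC1) was higher, and 5 of 6 were highest in L x Cm replicate 1. MINI3, a regulator of endosperm growth, was lower too, with 12.8, 13.3 and 43.4 RPKM in Cm x L and 114, 109 and 129 RPKM in L x Cm. STM, a shoot meristem gene, had 0.778, 2.30 and 1.09 RPKM in Cm x L and 25.0, 14.0 and 12.4 RPKM in L x Cm. The embryo markers CUC3, PLT1 and WOX2 averaged under 1 RPKM in Cm x L and passed the filter through their level in L x Cm. LEC1, a regulator of embryo maturation, averaged 126 ± 48.9 RPKM in Cm x L and 44.7 ± 16.5 RPKM in L x Cm (SD, n = 3 per cross). Of the 3 pollen markers, 2 were lower in Cm x L, with replicate 2 highest in each cross. The part of these tissues, or of endosperm state, in the oxidase differences was not tested.

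The 250 bases before the annotated start of transcription are printed for GA20ox1 and GA3ox1, which had large negative differences, and for GA20ox3, whose difference had the other sign and did not pass. They come from the RefSeq annotation and genome TAIR10.1 and are written 5′ to 3′ on the gene's strand, which is the minus strand in all 3. GA3ox1 lies at chr1:5346343-5346592, GA20ox1 at chr4:12992586-12992835 and GA20ox3 at chr5:2245340-2245589. Capitals mark matches on either strand to any of 4 motifs. These are TATAAA, the core of the promoter element near many starts, the G-box with the letters CACGTG, the core of the RY motif of seed genes with the letters CATGCA, and the W-box core, which reads TTGAC. Matches to a motif on both strands can overlap.
GA20ox1: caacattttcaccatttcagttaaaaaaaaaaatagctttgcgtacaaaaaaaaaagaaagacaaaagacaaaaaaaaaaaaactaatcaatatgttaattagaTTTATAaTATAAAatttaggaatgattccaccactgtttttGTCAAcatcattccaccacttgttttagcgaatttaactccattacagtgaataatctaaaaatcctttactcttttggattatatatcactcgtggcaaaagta
GA20ox3: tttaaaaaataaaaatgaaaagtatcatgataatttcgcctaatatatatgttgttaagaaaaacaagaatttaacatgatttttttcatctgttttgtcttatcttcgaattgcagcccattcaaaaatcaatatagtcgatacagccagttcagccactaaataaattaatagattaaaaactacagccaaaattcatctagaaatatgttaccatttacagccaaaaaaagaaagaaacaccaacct
GA3ox1: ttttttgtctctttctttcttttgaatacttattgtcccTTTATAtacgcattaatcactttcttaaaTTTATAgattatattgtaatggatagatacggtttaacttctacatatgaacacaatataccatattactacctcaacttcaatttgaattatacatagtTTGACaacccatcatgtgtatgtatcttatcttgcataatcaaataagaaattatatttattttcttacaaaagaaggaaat

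GA20ox1 and GA3ox1 each held TATAAA and TTGAC, and GA20ox3 held none of the 4 motifs. In GA3ox1 the TATAAA matches were on the opposite strand only. The motifs did not follow the calls: GA20ox2, which was not called, held both TATAAA and TTGAC, and GA2ox6, called lower, held TTGAC without TATAAA. Windows of 7 members were counted, and those of GA3ox3 and GA3ox4, whose annotated start is the start codon, were left out of the count. TATAAA was in 4 of the 7 and in 47.6% of 23501 windows of the same length at protein-coding genes. Those were the genes with an annotated start before the start codon, and their windows were not screened for overlap with other genes. TTGAC was in 6 of 7 and in 45.5% of all windows, CATGCA in 2 of 7 (GA20ox2 and GA2ox6) and 8.51%, and CACGTG in 0 of 7 and 7.06%. A match describes the letters in the window and is not evidence of binding.

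The rest of the gibberellin pathway was described from 7 lists with 38 genes. Of these, 35 had a mean of at least 1 RPKM, of which 2 were called higher and 5 lower, against 6.73% higher and 18.3% lower over all tested loci. Their median difference was −0.36, against −0.22 over all tested loci, and the count of lower genes was 1 or 2 when replicate 1 or 2 of either cross was left out and 8 without Cm x L replicate 3. The 2 higher genes were KAO1 and KAO2, both encoding ent-kaurenoic acid oxidase, which makes the precursor that GA 20-oxidases use. KAO2 had 482, 392 and 235 RPKM in Cm x L and 46.5, 76.1 and 99.2 RPKM in L x Cm. Its libraries were well separated (2.31, SE 0.34, adjusted p = 0.0074 by limma), and the call survived leaving out any 1 library. KAO1 had 25.7, 26.7 and 38.8 RPKM in Cm x L and 16.3, 6.90 and 9.67 RPKM in L x Cm (1.44, SE 0.31, adjusted p = 0.017), called in 5 of the 6 such fits and not without L x Cm replicate 2.

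Of the 3 earlier steps, GA1, which encodes copalyl diphosphate synthase (CPS) and makes the committed intermediate, fell in Cm x L. It had 1.18, 1.55 and 3.85 RPKM in Cm x L and 10.6, 6.40 and 5.05 RPKM in L x Cm (−1.42, SE 0.41, adjusted p = 0.040). This call was kept only when replicate 3 of either cross was the library left out (adjusted p = 0.014 and 0.043 by limma, and 0.092 to 0.13 without any other). GA2, encoding ent-kaurene synthase, and GA3, encoding ent-kaurene oxidase, did not pass, at 58.1 ± 12.9 and 209 ± 54.0 RPKM in Cm x L and 45.8 ± 8.69 and 141 ± 29.9 RPKM in L x Cm (SD, n = 3 per cross; adjusted p = 0.26 and 0.12 by limma).

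**Figure D4:**
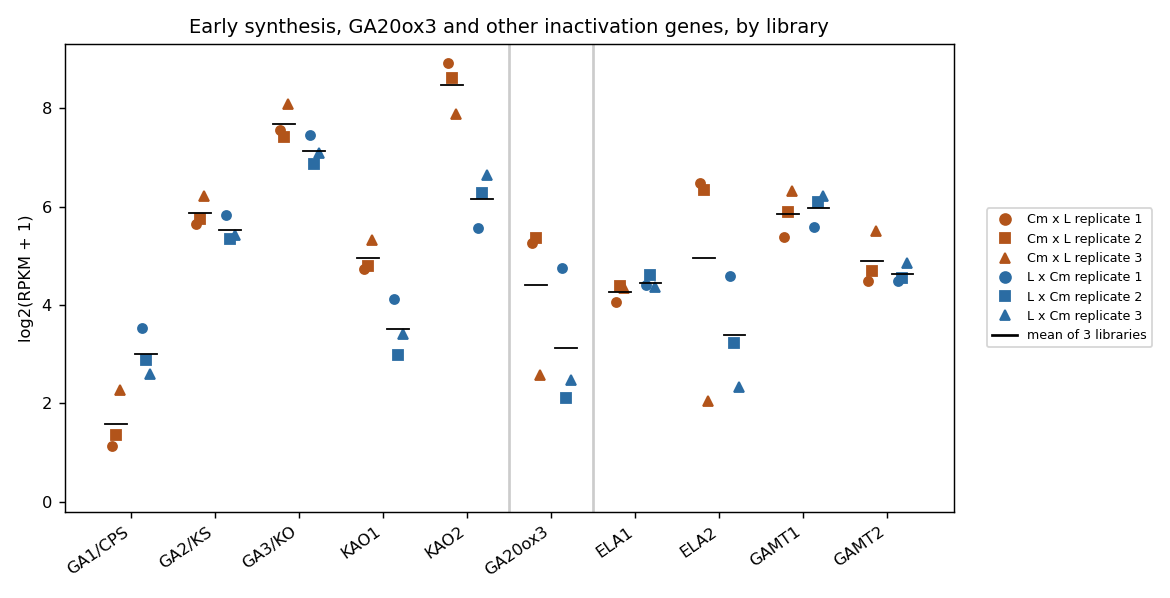
Levels, as log2(RPKM + 1), of genes of early synthesis (left of the first grey line), of GA20ox3 and of other inactivation genes (right), in the Cm x L libraries (orange, left) and L x Cm libraries (blue, right). KAO1 and KAO2 lie higher in Cm x L, GA1/CPS lower, and ELA2 spreads over the libraries much as GA20ox3 does.

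Among other routes of inactivation, 0 of 4 genes passed by limma, and 0 had an unadjusted p below 0.05. GAMT1 and GAMT2, gibberellin methyltransferases of developing seeds, had 59.0 ± 18.9 and 30.2 ± 12.3 RPKM in Cm x L and 62.6 ± 13.7 and 23.9 ± 3.50 RPKM in L x Cm (SD, n = 3 per cross). ELA2, a cytochrome P450 gene that lowers active gibberellin when overexpressed, had 87.6, 79.6 and 3.15 RPKM in Cm x L and 22.9, 8.39 and 4.05 RPKM in L x Cm. As in GA20ox3, Cm x L replicates 1 and 2 were highest, L x Cm replicate 1 was next, and Cm x L replicate 3 was among the low libraries. The difference was 1.57 (95% interval −1.05 to 4.19, adjusted p = 0.32), and 3.02 without Cm x L replicate 3 (adjusted p = 0.0076 by limma, range 0.0076 to 0.65 over all settings).

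Of the 5 tested GA oxidases outside the 10, GA2ox4, a further enzyme of inactivation, fell to 2.13 ± 0.684 RPKM in Cm x L, against 10.5 ± 2.70 RPKM in L x Cm (−1.87, SE 0.30, adjusted p = 0.0083, called in each of the 6 fits without 1 library). GA20ox5 and GA2ox3 had 22.8 ± 9.39 and 18.2 ± 0.41 RPKM in Cm x L and 26.1 ± 10.2 and 26.4 ± 11.9 RPKM in L x Cm (adjusted p = 0.74 and 0.34 by limma; SD, n = 3 per cross). GA2ox7 did not reach a mean of 1 RPKM.

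In signalling, the receptor gene GID1C fell to 0.833 ± 0.383 RPKM in Cm x L, against 4.87 ± 1.58 RPKM in L x Cm (−1.66, SE 0.36, adjusted p = 0.017), and lost the call without replicate 1 of either cross (adjusted p = 0.074 and 0.056 by limma). With a Cm x L mean under 1 RPKM, GID1C passed the filter through its level in L x Cm. GID1A, another receptor gene, had 11.2 ± 3.64 RPKM in Cm x L and 14.0 ± 1.85 RPKM in L x Cm, and the F-box genes SLY1 and SNE, whose products mark DELLA proteins for breakdown, 10.9 ± 1.05 and 2.05 ± 1.64 RPKM in Cm x L and 16.7 ± 6.22 and 7.49 ± 3.47 RPKM in L x Cm. None of these 3 passed by limma (adjusted p = 0.36, 0.18 and 0.064), though without Cm x L replicate 3 SNE was called (−1.95, adjusted p = 0.032). Of 7 genes of DELLA repressors and their modifiers, RGA fell, at 6.85 ± 1.74 RPKM in Cm x L and 13.9 ± 1.17 RPKM in L x Cm (−0.95, SE 0.24, adjusted p = 0.027). It was called without Cm x L replicate 3 but not without any other library (adjusted p = 0.055 to 0.095 by limma). RGL2, SPY and SEC had adjusted p of 0.090, 0.10 and 0.51 by limma, with differences of −0.64, −0.41 and 0.16.

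Among 8 response genes, GASA4 fell to 3.66 ± 2.40 RPKM in Cm x L, against 11.7 ± 4.49 RPKM in L x Cm (−1.50, adjusted p = 0.042 by limma). It too was called without Cm x L replicate 3 but not without any other library (adjusted p = 0.052 to 0.13). After quantile normalization GA1, GID1C, RGA and GASA4 were not called (adjusted p = 0.20, 0.35, 0.063 and 0.13). GASA1, a gibberellin-responsive gene and the most abundant of the list, had 165, 225 and 850 RPKM in Cm x L and 444, 738 and 1050 RPKM in L x Cm. Replicate 3 was the highest library in each cross, as it was for GASA14 at 155 RPKM in Cm x L and 158 RPKM in L x Cm. The 7 seed coat markers were also highest in Cm x L replicate 3, and 6 of 7 were highest in L x Cm replicate 3. GASA1, GASA14 and GASA6 did not pass (adjusted p = 0.19, 0.43 and 0.81 by limma). Without Cm x L replicate 3, GASA1 was called lower at −1.86, against −1.14 with all libraries, and GASA14 at −1.40, against −0.67 (adjusted p = 0.010 and 0.028). The part of seed coat RNA was not tested. Of the 3 transport genes, SWEET13 and SWEET14 lay under a mean of 1 RPKM, and NPF3.1 had 1.60 ± 1.06 RPKM in Cm x L and 3.53 ± 2.78 RPKM in L x Cm (adjusted p = 0.43; SD, n = 3 per cross).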

How the data were processed

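The deposited table holds RPKM values that the authors computed for 33602 loci in 6 libraries, as its name states. Per the labels' protocols, RNA was extracted from INTACT nuclei with the mirVana kit and poly(A) libraries were built with NEBNext kits. TopHat2 2.1.0 and the build TAIR10 are named in the submitters' processing notes, while the counting tool, and whether it used strand, is not given in the sources used here. Columns were matched to samples by parent order and replicate number. RPKM carries no correction between libraries beyond the total, so a few abundant transcripts can shift all other values. An RPKM table is not a count table, so no count test was run.

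Depth was recovered from pseudogenes with few reads, as the step at which 99.5% to 99.9% of 682 to 2250 values per library became whole within 0.02. Reads per gene were then approximated from the exon length in the RefSeq annotation of TAIR10.1, which may differ from the length the authors used. All 78 listed loci matched that annotation. limma 3.58.1 in R 4.3.3 with an intensity trend was fitted to log2(RPKM + 1) with cross direction as the only term. The fit was also run on simulated data with independent noise at each locus. Those data held no shift shared across a library, so they cannot show how such shifts affect the calls. With 3 libraries a cross, the smallest 2-sided p of an exact permutation test is 0.10, so adjusted p-values come from limma. A fold on this scale understates the change of low genes. Coding sequences were aligned with Biopython 1.88. The upstream sequence of 1 member is not reported here. Other tools were Python 3.11.15, pandas 2.3.3, numpy 2.4.6 and matplotlib 3.10.9.

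Named were all 10 members and, of the other gibberellin genes, those past the threshold and the 3 with the highest mean in each list. The 3 loci most like the member with the highest mean over the 6 libraries were named too. The members and lists were chosen with earlier results of these data known. The alternatives tried were other pseudocounts and filters, quantile normalization, no intensity trend, a replicate block and leaving out each library. Whether the replicate numbers pair the libraries is not settled, and the main fit has no block. Deviations of same-numbered libraries correlated at 0.08, 0.15 and 0.20, and those of differently numbered libraries at −0.23 to 0.12.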

Additional observations from a re-analysis of the deposited data

How the results depend on the processing

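The differences of the 10 oxidases kept their sign in all 126 combinations of gene and alternative, but many of these could not have changed it. The filters, the intensity trend and the replicate block leave the estimate as it is. For the 6 oxidases without overlap between the crosses, a pseudocount or a left-out library cannot reverse the sign. After quantile normalization GA2ox2 was at −0.01. The side of the threshold changed in 11 of the 126 combinations. GA2ox6 and GA2ox8 lost the call in 3 and 5, and GA3ox3, GA3ox4 and GA20ox3 gained it in 1 each. The count of lower oxidases, 5 as reported, was 3 to 5 without 1 library and 2 with a mean of at least 5 RPKM, where 6 of the 10 were tested. It was 4 after quantile normalization, which moved the median of all tested loci from −0.22 to 0.04 and the share of lower among called loci from 73.1% to 45.7%. The count of higher oxidases, 0 as reported, was 0 to 1 without 1 library, GA20ox3 being called without Cm x L replicate 3. Of the other gibberellin genes, 5 were lower as reported, 1 to 8 without 1 library (1 without replicate 1 of either cross, 2 without replicate 2 of either cross, 8 without Cm x L replicate 3), 2 with a mean of at least 5 RPKM and 1 after quantile normalization. The count of 2 higher was 1 to 3 without 1 library (1 without L x Cm replicate 2). Beyond fewer genes or libraries tested, the cause was not tested.

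With the replicate number as a block, 6 oxidases were lower and 0 higher, GA3ox3 being added (adjusted p = 0.018), and 5 other gibberellin genes were lower and 2 higher. GA1 was not among those 5 (adjusted p = 0.055), and GASA1 was (0.034). L x Cm replicate 1 correlated better with Cm x L replicate 2 (0.12) than with its own number (0.08). L x Cm replicates 2 and 3 correlated best with their own number (0.15 and 0.20).

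GA3ox1, GA2ox6 and GA2ox8 were each at 0 in 1 Cm x L library, where 3 reads on 1 kb are worth 0.103 to 0.135 RPKM. GA2ox6 was at 0 in Cm x L replicate 1, the library with most reads (29.2 M).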
